A study of Oryzias latipes with 8 samples.

Results

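The mitochondrial genome of vertebrates carries a pair of ribosomal RNA genes, for the 12S rRNA of the small and the 16S rRNA of the large subunit of the mitochondrial ribosome. They are described here as ENSORLG00000021749 (12S) and ENSORLG00000021751 (16S), 2 of the 18064 genes counted in axial tissue of medaka (*Oryzias latipes*). The members were chosen by identifier, with earlier results of these data known. A run of 37 consecutive Ensembl identifiers holds as many genes as a vertebrate mitochondrial genome, and the paper pairs 7 of them with mRNA genes (*nd1* to *nd3*, *cox1*, *cox2*, *atp6* and *atp8*). If the run follows the vertebrate gene order from the tRNA for phenylalanine, the 7 paired genes fall on their own places, 12S is at place 2, 16S at place 4 and *nd1* at place 6. The 7 identifiers have the same order as the starts of these genes in the RefSeq table of ASM223467v1. That table lists 13 mitochondrial genes, all protein coding, so the rRNA names rest on the order of identifiers and not on an annotation, and both genes are called places below. In that table *nd1* starts at base 2832 of the mitochondrial sequence, and in the vertebrate order both rRNA genes lie in the 2831 bases before it.

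The libraries came from pooled larvae, 4 from larvae kept in 1 µM TPhP and 4 from larvae kept in 0.1% DMSO, the solvent. TPhP is triphenyl phosphate, an organophosphate flame retardant and plasticizer, given here dissolved in DMSO. The paper describes technical replicates of biological replicates, so it is not established that the libraries of a group are 4 separate pools. All embryos were of the inbred orange-red Hd-dR strain, exposure began at 4 to 6 h post fertilization, and axial tissue was taken at 14 days post fertilization from 15 to 20 larvae per pool. The exposure ran from then until sampling, so an effect on stage or growth cannot be told apart from one on the tissue. The deposited values are raw counts, for each gene, of reads that mapped to 1 place.

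Mitochondrial rRNAs are transcribed with most of the mRNAs. The heavy strand of the vertebrate mitochondrial genome is copied into long precursors, from which tRNAs are cut, freeing the rRNAs and mRNAs between them. The rRNAs form the ribosome that translates the mitochondrial mRNAs into subunits of the respiratory chain and ATP synthase. In mammals the rRNAs carry at most short A tails. RNA was selected here with oligo-dT, so the counts measure the rRNA that stayed through this selection and not the rRNA content of the tissue. In bulk tissue, fewer cells rich in mitochondria and less mitochondrial RNA per cell cannot be told apart.

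Library totals were 46561277 to 51501685 counts with TPhP and 48691227 to 50615770 with DMSO. The factors of edgeR's TMM normalization did not overlap, at 1.02 to 1.21 in TPhP libraries and 0.847 to 1.00 in DMSO libraries, so that CPM (counts scaled to 1e+06 of the TMM-normalized library size) are moved apart by the scaling itself. A library stood apart in each group. By the chi-square per degree of freedom between the counts of a pair of libraries, TPhP replicate 1 differed from the other TPhP libraries by 137 to 282 and these among themselves by 62.1 to 125, and DMSO replicate 4 differed from the other DMSO libraries by 186 to 257 and these among themselves by 42.6 to 57.4. Across all genes, edgeR's quasi-likelihood test called 0 of 15893 with all 8 libraries, with 2582 at an unadjusted p under 0.05. A gene was called when its fold change was above 1.5 and its p after Benjamini-Hochberg adjustment was under 0.05. DESeq2 called 598, and edgeR without TPhP replicate 1 called 1712. The axial skeleton markers *col1a*, *col2a1*, *col10a1*, *sp7*, *runx2*, *twist1* and *sox9a*, 7 of 7, had counts in every library. Some of them were higher with TPhP. *Col2a1* had 81.5 to 308 CPM with TPhP and 30.6 to 73.0 CPM with DMSO. *Runx2* had 6.49 to 9.00 CPM with TPhP and 3.42 to 6.28 CPM with DMSO. For both the groups did not overlap, but the share of all genes higher in every TPhP library is not given here. *Col10a1* had 327 to 715 CPM with TPhP and 88.2 to 436 CPM with DMSO, and the other 4 markers overlapped as well. Since edgeR called 0 genes with all 8 libraries, the lack of a call for these 3 says nothing about them. The part of such tissue differences in the rRNA values was not tested. Markers of other cell types were not analysed here, because their identifiers are not paired with names.

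The 12S place, whose RNA is the core of the small ribosomal subunit, had 7791, 115, 167 and 89 counts in TPhP replicates 1 to 4 and 7342, 17196, 9604 and 18555 counts in DMSO replicates 1 to 4. At the normalized library sizes these were 151, 2.04, 3.07 and 1.67 CPM in the TPhP libraries and 178, 387, 214 and 369 CPM in the DMSO libraries. TPhP replicates 2, 3 and 4 were 141-, 93.6- and 172-fold lower than the DMSO mean, whereas TPhP replicate 1 lay just below the lowest DMSO library. The 16S place, whose RNA holds the catalytic center of the large subunit, had 6114, 211, 193 and 213 counts in the TPhP libraries and 5831, 13463, 5369 and 10935 in the DMSO libraries. In CPM it had 119, 3.73, 3.54 and 3.99 with TPhP and 141, 303, 120 and 218 with DMSO. For the 16S place the same 3 TPhP libraries were 52.3-, 55.1- and 49.0-fold lower than the DMSO mean, and TPhP replicate 1 was level with DMSO replicate 3. Neither place was at 0 in any library. Since only reads that mapped to 1 place in the genome were counted, and the reads themselves were not analysed here, the part of read mapping in the low counts of these and the other mitochondrial genes was not tested.

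**Figure D1:**
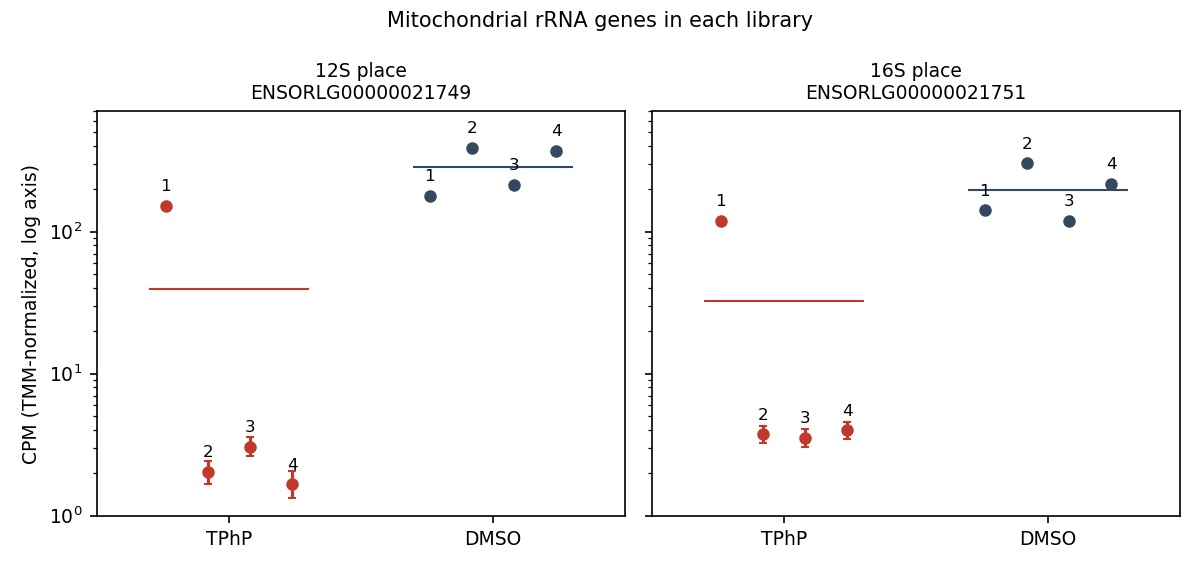
CPM of the 12S place (left) and the 16S place (right) on a log axis in each TPhP and DMSO library. Numbers are replicates, horizontal lines are group means and bars are exact 95% Poisson intervals of the counts. TPhP replicates 2 to 4 lie between 1.67 and 3.99 CPM, and TPhP replicate 1 lies at 151 and 119 CPM, next to the lowest DMSO libraries.

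Mean expression of the 12S place was 39.5 ± 74.5 CPM with TPhP and 287 ± 106 CPM with DMSO (SD, n = 4 each), and that of the 16S place 32.5 ± 57.5 CPM with TPhP and 195 ± 83.1 CPM with DMSO (SD, n = 4 each). The SD exceeded the mean in TPhP libraries because of replicate 1. The log2 fold change was −2.86 ± 1.37 (SE) for the 12S place, with a Benjamini-Hochberg adjusted p of 0.338 in edgeR, and −2.59 ± 1.15 (SE) for the 16S place, with an edgeR adjusted p of 0.308. Neither passed the test with all 8 libraries, where edgeR called 0% of all genes tested lower, nor with DESeq2, which called 1.05% lower and gave adjusted p values of 0.259 for the 12S and 0.233 for the 16S place. By size, the fold changes were the 7th and 10th most negative of 15893 genes, while by p they ranked 3040th and 2587th.

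TPhP replicate 1 decided the edgeR call. Without it both places were called lower, at log2 fold changes of −6.99 ± 0.43 (SE) for the 12S place, with an edgeR adjusted p of 0.000154, and −5.70 ± 0.38 (SE) for the 16S place, with an edgeR adjusted p of 0.000267, in a fit that called 4.81% of all genes lower. With any other library left out, neither place was called. Those fits called 0 genes, or 4 of 16021 without DMSO replicate 4, so the lack of a call there says little about these places. In those fits the 12S place ranged from −3.04 to −2.46 and the 16S place from −2.77 to −2.21.

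**Figure D2:**
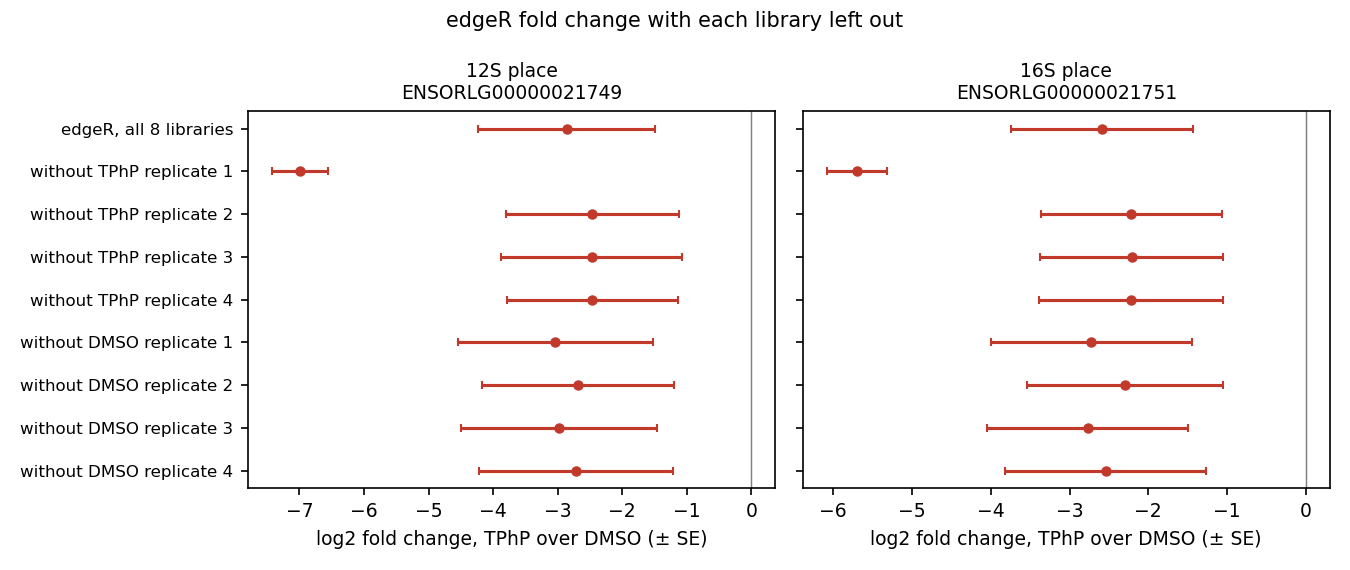
edgeR log2 fold change (TPhP over DMSO) of the 12S and 16S places with all 8 libraries and with each library left out. Bars are standard errors. The values without TPhP replicate 1, −6.99 and −5.70, stand apart from all others, which lie between −3.04 and −2.21.

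Compared one value per library, the log2 CPM of the 12S place averaged 2.67 ± 3.06 with TPhP and 8.09 ± 0.56 with DMSO (SD, n = 4 each), a difference of −5.41. Its two-sided exact permutation p was 0.0286, the smallest possible with 70 splits, and 0.0714 once adjusted over 5 comparisons. For the 16S place the values were 3.17 ± 2.49 with TPhP and 7.51 ± 0.61 with DMSO (SD, n = 4 each), a difference of −4.35 (exact permutation p = 0.0286, adjusted 0.0714). In CPM every TPhP library was below every DMSO library for 2 of 2 rRNA places, as for 3.57% of all genes tested. The same held for 7 of 7 mRNAs paired by the paper and for 1 of 6 further mitochondrial mRNA places, that of *cox3*. For the rRNA places this separation rested on the scaling. Scaled to library size only, TPhP replicate 1 had 154 CPM of the 12S place, against 151 in the lowest DMSO library, and 121 CPM of the 16S place, against 108 in the lowest DMSO library. With the RLE factors of DESeq2 the 16S place also overlapped, at 121 CPM in TPhP replicate 1 and 119.5 CPM in the lowest DMSO library (exact permutation p = 0.0571). With library sizes only, the exact p was 0.0571 for the 12S and 0.0857 for the 16S place, and the median over all genes of the log2 fold change was 0.30, against 0.02 with TMM.

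The 16S place had 0.785, 1.83, 1.16 and 2.39 counts per count of the 12S place in TPhP replicates 1 to 4, and 0.794, 0.783, 0.559 and 0.589 in DMSO replicates 1 to 4. TPhP replicates 2 to 4 were the libraries with more counts on the 16S than on the 12S place, and TPhP replicate 1 lay among the DMSO libraries. The log2 ratio averaged 0.50 ± 0.71 with TPhP and −0.57 ± 0.27 with DMSO (SD, n = 4 each), a difference of 1.07 that missed the threshold (two-sided, exact permutation p = 0.0571, adjusted 0.0714 over 5 comparisons). Without TPhP replicate 1 it was 1.35 (exact permutation p = 0.0286, the smallest that 3 libraries against 4 give). A ratio of counts within a library needs no scaling between libraries, but it is not per length, since the lengths of these genes are not given in the sources used here. The exact 95% Poisson intervals of the 16S place in TPhP replicates 2 to 4 were 184 to 242, 167 to 222 and 185 to 244 counts and overlapped. Those of the 12S place were 94.9 to 138, 143 to 194 and 71.5 to 110 counts, so the 12S counts of TPhP replicate 3 lay beyond the intervals of the other low libraries.

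Whether rRNA and mRNA of 1 genome moved together was asked by setting the summed rRNA counts of each library against the summed counts of its mitochondrial mRNAs. The answer differed between the mRNAs. The 7 paired mRNAs encode subunits of complex I (*nd1*, *nd2*, *nd3*), cytochrome *c* oxidase (*cox1*, *cox2*) and ATP synthase (*atp6*, *atp8*), and the study chose them on these samples, so they are no independent comparison. The 6 further mRNA places, named by the order of identifiers like the rRNA places, are those of *cox3*, *nd4l*, *nd4*, *nd5*, *nd6* and *cytb*, of which *cytb* encodes the cytochrome subunit of complex III and the *nd* genes subunits of complex I.

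Relative to the DMSO mean of log2 CPM, the 12S place differed by −0.84, −7.03, −6.45 and −7.32 in TPhP replicates 1 to 4. The differences of the 16S place were −0.62, −5.60, −5.67 and −5.50. *Nd1*, the next mRNA gene along the run, had −1.08, −9.08, −8.61 and −8.40, and *nd2* had −0.96, −9.13, −9.16 and −9.14. Both mRNAs lay further below their DMSO mean than the rRNA places did in the same 3 libraries. *Cox1*, the catalytic subunit of cytochrome *c* oxidase, differed by −0.83, −2.74, −2.67 and −2.50. *Cox2* differed by −1.12, −8.72, −8.98 and −8.83, *atp6* by −1.47, −7.83, −8.55 and −7.80, and *nd3* by −1.15, −8.62, −7.63 and −6.72. *Atp8* had 54, 0, 0 and 0 counts in the TPhP libraries and 97, 91, 57 and 105 in the DMSO libraries, too few to place it against the rRNA. In TPhP replicates 2 to 4 *nd3* had 2, 6 and 13 counts and *nd2* had 17, 16 and 16. Their log2 values there depend on the prior count of 2. The 6 further places had no such low libraries. Over the 4 TPhP libraries the place of *cox3*, which lies between those of *atp6* and *nd3*, differed by −0.42, −0.67, −0.62 and −0.41, and that of *cytb* by −0.26, −0.41, −0.39 and −0.28.

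**Figure D3:**
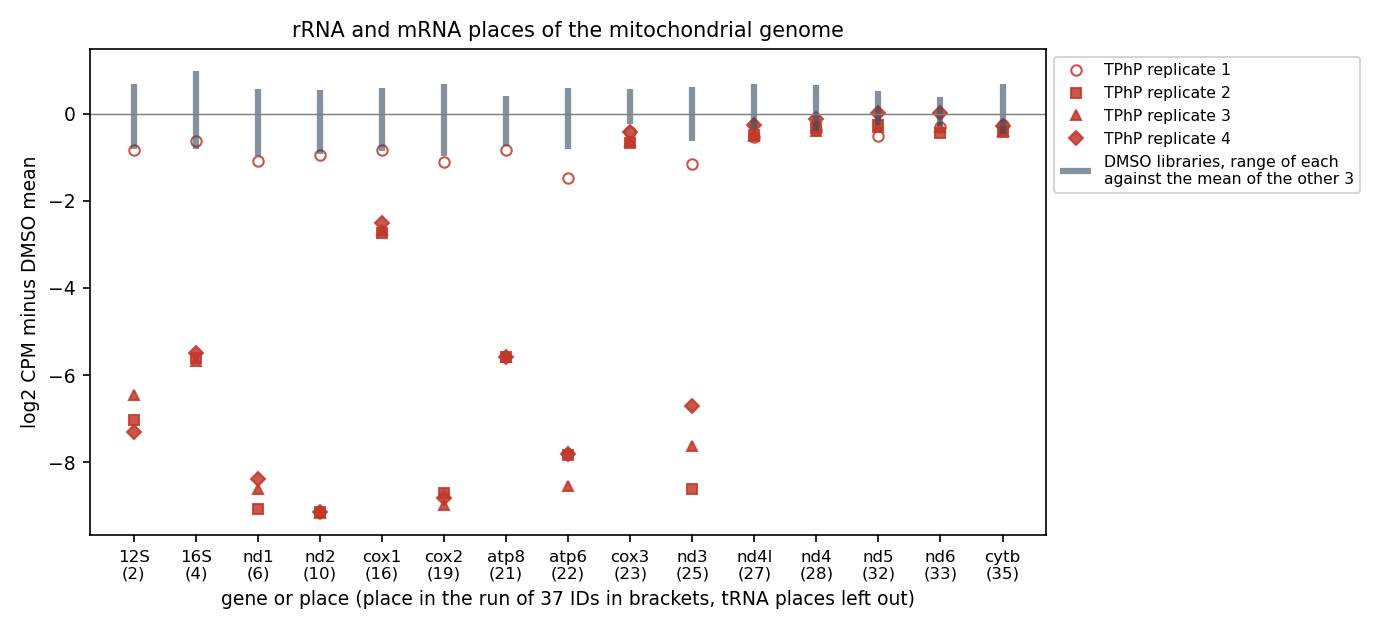
Log2 CPM of each TPhP library minus the DMSO mean at the 15 rRNA and mRNA places of the mitochondrial run, in the order of identifiers; grey bars span the 4 DMSO libraries, each against the mean of the other 3. In TPhP replicates 2 to 4 both rRNA places lie between −7.32 and −5.50, *cox1* between −2.74 and −2.50 and the place of *cox3* between −0.67 and −0.41.

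Along the run, the rRNA and mRNA places far below DMSO in TPhP replicates 2 to 4 lay from 12S to *atp6*, with *nd3* beyond the place of *cox3*. *Cox1*, within this stretch, fell less. It kept 78884, 79884 and 88060 counts in these libraries, 6.94-, 6.61- and 5.88-fold below the DMSO mean in CPM. By edgeR with all 8 libraries, the log2 fold change was negative for 7 of 7 paired mRNAs (median −3.13, from −3.48 to −1.99) and for 6 of 6 further places (median −0.35, from −0.55 to −0.25), beside −2.86 and −2.59 for the rRNA places and a median of 0.02 over all genes. None of these 15 was called by edgeR with all 8 libraries, where it called 0 genes, and DESeq2 called *cox1*. Without TPhP replicate 1, edgeR called 2 of 2 rRNA places, 7 of 7 paired mRNAs and 0 of 6 further places lower, where 4.81% of all genes were called lower. At 0.05 the further place nearest to a call in that fit was that of *cox3*, with a log2 fold change of −0.59 (edgeR adjusted p = 0.0608).

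The rRNA places had 1.22, 0.0288, 0.0326 and 0.0246 counts per 100 counts of the 6 further mRNA places in TPhP replicates 1 to 4, and 0.818, 2.91, 1.28 and 2.20 in DMSO replicates 1 to 4. TPhP replicates 2 to 4 were far below all DMSO libraries, and TPhP replicate 1 lay within them. The log2 ratio averaged −10.42 ± 2.71 with TPhP and −5.96 ± 0.82 with DMSO (SD, n = 4 each), a difference of −4.46 that missed the threshold (two-sided, exact permutation p = 0.0571, adjusted 0.0714 over 5 comparisons). Without TPhP replicate 1 it was −5.82 (exact permutation p = 0.0286). Within the DMSO libraries alone this ratio also varied, with DMSO replicate 1 the lowest. DMSO replicate 1 had the fewest counts of the 12S place and the most of the *cox3*, *nd4l*, *nd4*, *nd5*, *nd6* and *cytb* places among the DMSO libraries.

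Against the 7 paired mRNAs the direction depended on *cox1*, which held most of their counts. Per 100 counts of the 7 mRNAs the rRNA places had 3.82, 0.410, 0.448 and 0.341 in the TPhP libraries and 2.41, 3.77, 3.94 and 3.77 in the DMSO libraries. The log2 ratio averaged −7.16 ± 1.64 with TPhP and −4.88 ± 0.34 with DMSO (SD, n = 4 each), a difference of −2.28 (two-sided, exact permutation p = 0.114, adjusted 0.114 over 5 comparisons). Without *cox1*, the rRNA places had 15.0, 55.5, 78.6 and 53.9 counts per 100 counts of the other 6 in the TPhP libraries and 8.0, 12.2, 13.5 and 12.5 in the DMSO libraries. Every TPhP library was then above every DMSO library, and the difference in the log2 ratio turned to 1.94 (exact permutation p = 0.0286). This p is the smallest that 70 splits allow and was not adjusted. The study listed these mRNAs for their fall in these samples, so the higher ratio is no independent comparison. In counts within the same libraries, the direction of the mean difference thus turned on whether *cox1* was in the sum.

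**Figure D4:**
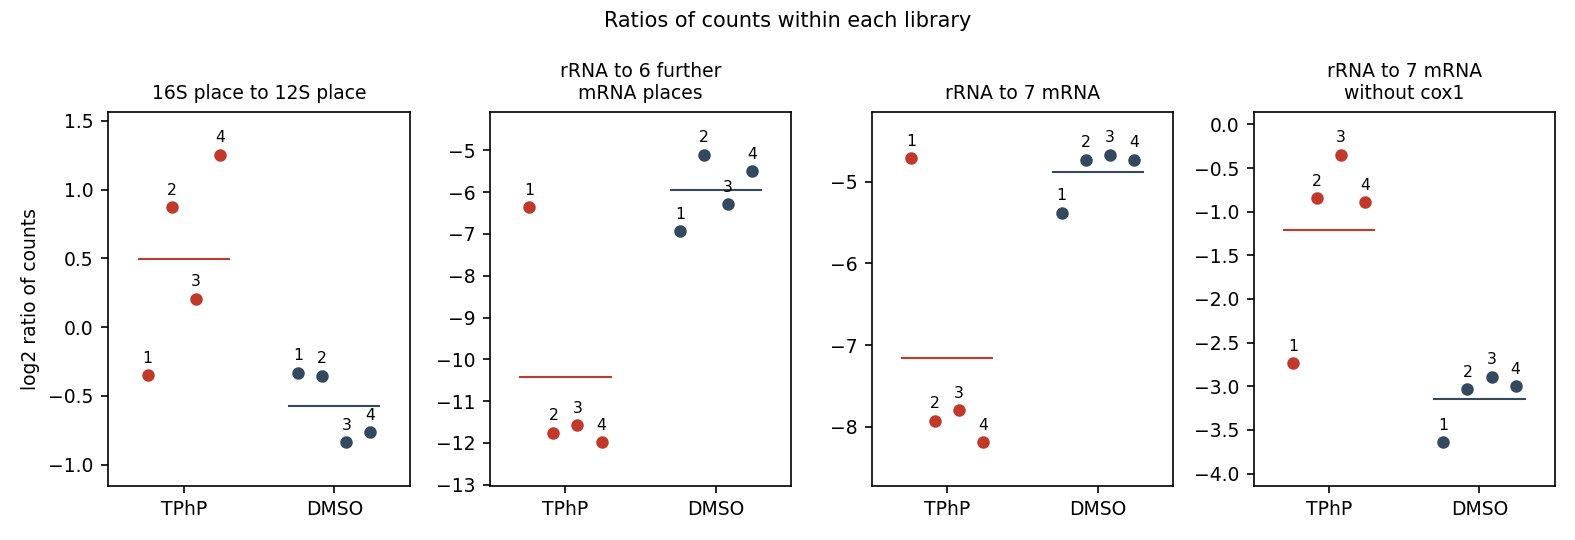
Log2 ratios of counts within each TPhP and DMSO library: the 16S to the 12S place, and both rRNA places to the 6 further mRNA places, to the 7 paired mRNAs and to these without *cox1*; numbers are replicates and lines are group means. The 3 low libraries fall below the DMSO libraries against the 6 further places and against the 7 mRNAs, and above them once *cox1* is left out.

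Each mRNA was also taken alone as the denominator, a comparison chosen after the values had been seen. The mean ratio of rRNA to mRNA was lower with TPhP for 7 of 13 (differences in log2 ratio of −2.69 for *cox1* and −4.62 to −4.34 for the 6 further places) and higher for the other 6. For *cox1* the groups overlapped, with 5.12 rRNA counts per 100 *cox1* counts in TPhP replicate 1, against 3.45 to 5.56 in the DMSO libraries (exact permutation p = 0.0571), and they overlapped for *nd2* and *atp8* too (exact permutation p = 0.0571 and 0.114). They also overlapped for each of the 6 further places (exact permutation p = 0.0571 to 0.0857). In 4 of the 6 with a higher mean ratio (*nd1*, *cox2*, *atp6* and *nd3*) every TPhP library was above every DMSO library, TPhP replicate 1 included. The mean differences were 1.97, 2.05, 1.56 and 1.47 on the log2 scale (exact permutation p = 0.0286 each). After adjustment over the 13, the p values lay between 0.0825 and 0.114, so that none passed. All 6 mRNAs with a higher ratio are among those the study chose on these samples, so they are no independent comparison. Other genes were not taken as denominators, so no share over all genes is given.

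As a share of all counts, the rRNA places held 0.00738% ± 0.0134 with TPhP and 0.0441% ± 0.0180 with DMSO (SD, n = 4 each). The 7 paired mRNAs held 0.308% ± 0.274 with TPhP and 1.26% ± 0.395 with DMSO, and the 6 further places 2.35% ± 0.0783 with TPhP and 2.60% ± 0.525 with DMSO (SD, n = 4 each). The whole run of 37 identifiers held 2.67% ± 0.221 with TPhP and 3.91% ± 0.582 with DMSO, so that the rRNA places were a small part of the mitochondrial counts in every library.

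The tRNA places on either side of the rRNA places, ENSORLG00000021748, ENSORLG00000021750 and ENSORLG00000021752 by the order of identifiers, had 0 counts in all 8 libraries. Of the 22 tRNA places, whose RNAs carry amino acids to the mitochondrial ribosome, 12 had no count, no place had more than 41 counts in a library, and 2 were tested. ENSORLG00000021755 had 11, 0, 0 and 2 counts in TPhP replicates 1 to 4 and 16, 21, 6 and 41 in DMSO replicates 1 to 4, and ENSORLG00000021764 had 21, 33, 10 and 29 counts with TPhP and 28, 29, 27 and 23 with DMSO. Neither was called with all 8 libraries. Without TPhP replicate 1 edgeR called 1 of the 2 lower, ENSORLG00000021755, in a fit that called 4.81% of all genes lower. With so few counts these places could not be read against the rRNA.

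Likeness was measured by Pearson's r between the log2 CPM of a gene and the mean log2 CPM of both rRNA places over the 8 libraries. It is a description, since the libraries share their treatment groups and 3 low libraries set most of it. Among 15893 genes the rRNA places were followed by *nd2* (r = 0.997), *cox2* (0.997), *nd1* (0.996), *atp6* (0.993) and *atp8* (0.992). *Nd3* (0.988) and *cox1* (0.978) also ranked within the first 24, and the 6 further places had r from 0.144 to 0.692. Outside the run, the highest r were those of ENSORLG00000005111 (0.990) and ENSORLG00000017478 (0.988), and the lowest those of ENSORLG00000001490 (−0.988) and ENSORLG00000015153 (−0.984), none of them paired with a name. ENSORLG00000005111 had 25.8, 18.5, 17.8 and 18.7 CPM in the TPhP libraries and 25.2 to 27.7 CPM in the DMSO libraries. It was low in the same 3 libraries as the rRNA places, over a far narrower range.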

How the data were processed

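RNA-Seq counts of axial tissue were analysed from 8 libraries (4 TPhP, 4 DMSO). The authors selected RNA with oligo-dT, made strand-keeping libraries, checked and trimmed the reads, aligned them with STAR to ASM223467v1, counted those mapping to 1 place for each gene with htseq-count and deposited the raw counts. Their comparison used DESeq2 1.40.2. The STAR version, the annotation and the strand option of the counting are not given in the sources used here. The paper describes technical replicates of biological replicates of pooled larvae. Which of these a library is was not stated, and each library was treated here as a separate pool.

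From these counts, filterByExpr kept 15893 of 18064 genes, TMM scaled the libraries, and edgeR 4.0.16 (R 4.3.3) tested treatment by its quasi-likelihood test, and p values were adjusted over all genes by Benjamini-Hochberg. Standard errors were taken from the fold change and the quasi-likelihood F. Log2 CPM used a prior count of 2. The log2 ratios used counts with 0.5 added and, like single log2 CPM values, two-sided exact permutation tests over 70 splits. Intervals of counts are exact 95% Poisson intervals and cover counting error only, since PCR copies are not independent molecules. Python 3.11.15, pandas 2.3.3, scipy 1.17.1 and matplotlib 3.10.9 were used otherwise.

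The members and lists were chosen with earlier results of these data known. Genes were named by a rule: both rRNA places, the 7 paired mRNAs, the tRNA places next to the rRNA, and the 2 genes outside the run with the highest and the 2 with the lowest r to the rRNA mean. The 6 further mRNA places and 2 tRNA places were given because they have counts to test. Nuclear genes of the mitochondrial ribosome and of mitochondrial RNA processing were planned as lists but not analysed here, because no table used here pairs their identifiers with names. No sequence is printed, because none was read from the sources used here. Alternatives were DESeq2 1.42.0, other scaling, other filters, other fold-change thresholds, leaving out each library, a block for replicate number, other added counts and other summaries over mRNAs. Replicate numbers come from the library names, and the title of TPhP replicate 4 ends in the number of replicate 3.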

Additional observations from a re-analysis of the deposited data

Results flagged for a closer look

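In 5 of 10 groups of 4 values examined, 1 library lay further from the rest of its treatment than Dixon's 95% critical value for 4 samples allows, where chance gives 0.5. In 4 of the 5 it was TPhP replicate 1 among the TPhP libraries, and its gap to the nearest of them, as a share of their whole range, was 0.866 for the log2 CPM of the 12S place, 0.967 for the log2 CPM of the 16S place, 0.887 for the log2 ratio of rRNA to the 7 paired mRNAs and 0.928 for the log2 ratio of rRNA to the 6 further mRNA places. These values share the same rRNA counts and describe 1 library. In the remaining group, DMSO replicate 1 had a gap of 0.914 in the log2 ratio of rRNA to the 7 paired mRNAs, at −5.38, against −4.73 to −4.67 in the other DMSO libraries. The causes were not tested.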

How the results depend on the processing

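With edgeR and all 8 libraries, 0 genes were called, with 2582 at an unadjusted p under 0.05. The count stayed at 0 with RLE factors, with library sizes only, with mitochondrial genes left out of TMM, with no filter and with at least 10 counts. The lowest edgeR adjusted p in the main fit was 0.164. A fold change above 2 and the adjusted p alone were applied to that fit and so could only give 0. In the fits with other scaling or filters, 2503 to 4689 genes had an unadjusted p under 0.05. DESeq2 called 598 genes (431 higher, 167 lower), and 2290 without TPhP replicate 1 (1230 higher, 1060 lower), where it called both rRNA places lower, at −7.02 for 12S and −5.72 for 16S. With each library left out in turn, edgeR called 0 to 1712 genes (0 to 940 higher, 0 to 772 lower), and the log2 fold changes ranged from −6.99 to −2.46 for 12S and from −5.70 to −2.21 for 16S. The highest counts were those without TPhP replicate 1. Leaving out DMSO replicate 4 gave 4 (2 higher, 2 lower). The 16S to 12S log2 ratio ranged from 0.82 to 1.35, rRNA to the 7 mRNAs from −3.10 to −1.94 and rRNA to the 6 further places from −5.82 to −3.94, each past 0.05 only without TPhP replicate 1 (exact permutation p = 0.0286). Rather than −2.28, rRNA to the 7 mRNAs turned to 0.81 with the mean of log2 CPM, 1.91 with their median and 1.94 without *cox1* (exact permutation p = 0.0286 each). These p values are the smallest that 70 splits allow and were not adjusted. The study chose the 7 mRNAs on these samples, so they are no independent comparison. Adding 0 or 2 counts changed no call.

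Alternatives for the log2 CPM differences were chosen after seeing the data. With library sizes only they were −5.13 for 12S (exact permutation p = 0.0571) and −4.07 for 16S (p = 0.0857, exact), and with RLE factors −4.36 for 16S (exact permutation p = 0.0571). With 1 library left out they ranged from −6.93 to −4.78 for 12S and from −5.59 to −3.91 for 16S. The exact p was 0.0571 without any 1 DMSO library and 0.0286 without any 1 TPhP library. The groups did not overlap in any of these. Without a DMSO library, the split with TPhP replicate 1 on the DMSO side had a larger difference than the true split, which raised the p.

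No source used here says whether same-numbered libraries were paired. Their deviations from the group means correlated at 0.0709, 0.213, 0.0246 and −0.252 for replicates 1 to 4. With the replicate number as a block in edgeR, 0 genes were called (2072 at an unadjusted p under 0.05), and the log2 fold changes were −6.10 for 12S (edgeR adjusted p = 0.261) and −4.77 for 16S (edgeR adjusted p = 0.25). Pairing by number left the log2 CPM differences at −5.41 and −4.35 (exact sign flip p = 0.125, the smallest that 4 pairs allow). In TPhP replicates 2 to 4 each rRNA place rests on 89 to 213 counts, which limits the precision of their ratios. Ratios to *nd3* are less precise still, since it had 2, 6 and 13 counts in these libraries. The cause of each change was not tested.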
